A study of Mus musculus with 7 samples.

Results

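The genes described here are 9 genes of retinoic acid synthesis and signalling, chosen by name: Rbp4 and Stra6 (retinol transport), Aldh1a1, Aldh1a2 and Aldh1a3 (synthesis), Cyp26b1 (degradation), Crabp2 (intracellular delivery), and Rara and Rarb (receptors). They are 9 of the 40873 genes analysed in the deposited count table, and 8 of the 9 had enough counts to be tested. Poly(A) RNA was sequenced from choroid plexus, the tissue that secretes cerebrospinal fluid, taken from the lateral ventricles of wild-type (WT) CD-1 mouse embryos and pooled. The tissue was collected at E15.5, 24 h after treatment. The RBC group (3 libraries) was treated with red blood cells taken from the blood of an E14.5 donor litter, collected in sodium citrate, washed in sterile saline and resuspended in saline. The Saline group (4 libraries) was treated with saline. All 7 libraries carry the same batch number, and the labels call them biological replicates. The route of delivery and the number of embryos or litters behind each pool do not appear in the sources used here, so p-values measure only the spread between these libraries.

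Retinoic acid is made from vitamin A in 2 oxidation steps. Retinol reaches tissues bound to the plasma carrier encoded by Rbp4, enters cells through the receptor encoded by Stra6, and is oxidised first to retinal and then, by the retinaldehyde dehydrogenases of the Aldh1a family, to retinoic acid. Inside the cell retinoic acid is delivered to nuclear receptors, which bind DNA as dimers with retinoid X receptors, and it is removed by hydroxylases of the Cyp26 family. The developing meninges and the choroid plexus are known sites of retinoic acid synthesis around the embryonic brain.

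Total counts ran from 5479812 to 7944404 in the RBC libraries and from 4393860 to 8386928 in the Saline libraries. Levels of single genes are given as CPM (a gene's counts relative to the depth of its library, scaled by TMM, a normalisation of library composition), and levels of different genes are compared as TPM (which also divides by exonic length). The markers of the labelled tissue were present, and all 12 markers of choroid plexus epithelium were tested. Their summed level was 19301 to 20880 CPM in the RBC libraries and 19712 to 24940 CPM in the Saline libraries. Ttr made up most of that sum in every library, at 10050 CPM (Saline 3) to 14879 CPM (Saline 4). The log2 fold change (RBC minus Saline) lay above 0 for 2 of the 12 markers and below 0 for the others. Its median was -0.12, and 0 of the 12 passed the threshold given below. Saline 4 and RBC 3 stood apart from the other libraries. In Saline 4 the summed level of 8 hepatocyte markers was 1481 CPM, where the other 6 libraries had 1.93 to 17.5 CPM, and all 8 markers were highest there. In RBC 3 the summed level of 13 markers of meninges and mesenchyme was 2979 CPM, where the other 6 libraries had 1610 to 2025 CPM, and 11 of the 13 were highest there. Results that rest on either library are given with and without it.

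None of the 8 tested genes passed the threshold of an adjusted p of 0.05 between RBC and Saline in the quasi-likelihood F test of edgeR, adjusted over all 14869 genes tested, of which 9 (0.0605%) passed it. DESeq2 called 0 of the 8 as well, but it gave Rbp4 no p, so Rbp4 could not be called there. Over all genes tested DESeq2 called 277 (1.86%). At an unadjusted p of 0.05, edgeR called 1 of the 8, Stra6, which is 12.5% of the tested members against 9.54% of all genes tested, a share near that background for so few genes. Stra6 was also the tested member whose RBC and Saline libraries did not overlap, a separation found in 9.59% of all genes tested. Of the 8 log2 fold changes (RBC minus Saline throughout), 4 lay above 0 and 4 below. They ran from -1.76 (Rbp4) to 1.77 (Aldh1a1) with a median of 0.03, where the median of all genes tested was -0.0003. As the libraries are bulk tissue, fewer cells of a type and less RNA per cell cannot be told apart in any of these values.

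**Figure D1:**
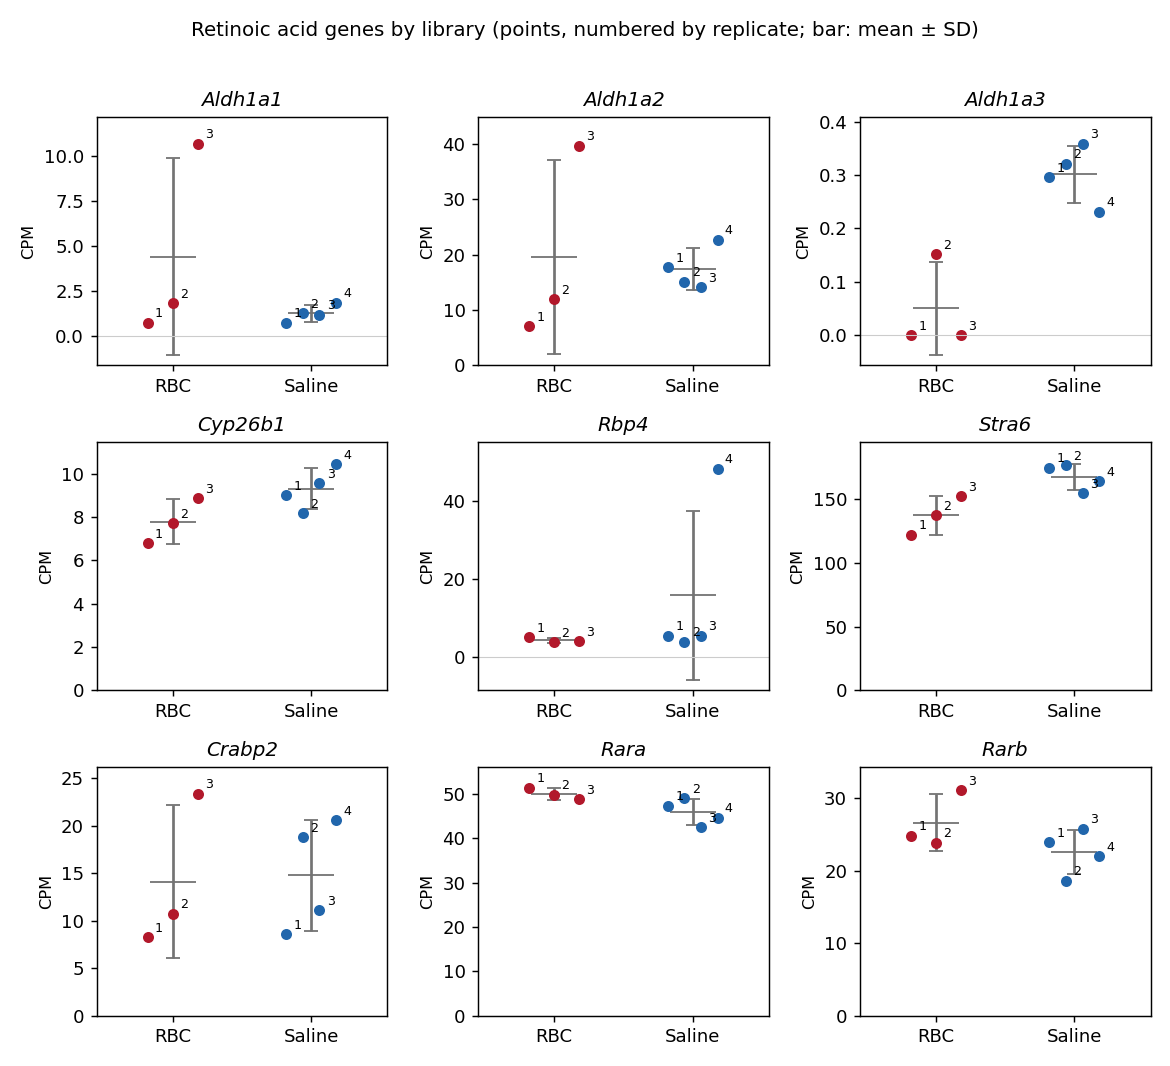
CPM of each of the 9 genes (vertical axis, linear) in the RBC libraries (red) and the Saline libraries (blue), 1 point per library numbered by its replicate, with the group mean ± SD as the grey bar. RBC 3 is the high point for Aldh1a1 at 10.7 CPM and for Aldh1a2 at 39.7 CPM, and Saline 4 is the high point for Rbp4 at 48.4 CPM.

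Stra6, which encodes the cell surface receptor that takes up retinol from its plasma carrier, had the highest mean TPM of the 9 genes in both groups. The gene lies on chromosome 9 (GRCm39, 57971076 to 58061287, plus strand). Stra6 had 973, 908 and 840 counts in RBC 1, 2 and 3, and 1181, 1100, 1293 and 708 counts in Saline 1 to 4. Scaled to library size, Stra6 stood at 122, 137 and 152 CPM in the RBC libraries, against 175, 176, 155 and 164 CPM in the Saline libraries. Every RBC library was therefore below every Saline library, although the highest RBC library (RBC 3) and the lowest Saline library (Saline 3) differed by little. The mean was 137 ± 15.0 CPM in RBC libraries (SD, n = 3) and 167 ± 10.1 CPM in Saline libraries (SD, n = 4). For Stra6 the log2 fold change was -0.29 ± 0.08 (SE), or 0.819-fold, with an edgeR p of 0.00542 and an adjusted p of 0.219 over all genes. All but 2 of the 12 markers of choroid plexus epithelium also had a log2 fold change below 0, with a median of -0.12 over the 12. Whether Stra6 followed the level of that epithelium was not tested. Without RBC 3 the log2 fold change of Stra6 was -0.37 ± 0.08 and the edgeR adjusted p was 0.0480, the one alternative in which a member passed the threshold. In that fit 283 genes were called in all, against 9 with all 7 libraries. The other alternatives gave the same sign, and the adjusted p over all of them lay between 0.0480 and 0.511.

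Rbp4 encodes the retinol carrier that the liver secretes into plasma, and its values turned on 1 library. The gene lies on chromosome 19 (GRCm39, 38105068 to 38113769, minus strand). Rbp4 had 41, 26 and 23 counts in RBC 1, 2 and 3, against 38, 25, 47 and 209 counts in Saline 1 to 4. In CPM these were 5.15, 3.93 and 4.16 in the RBC libraries and 5.62, 4.01, 5.62 and 48.4 in the Saline libraries. Saline 4 was thus 10.4 times the median of the other 6 libraries for Rbp4, while the remaining RBC and Saline libraries overlapped. With all 7 libraries the log2 fold change was -1.76 ± 1.14 (edgeR adjusted p = 0.738), and without Saline 4 it was -0.19 ± 0.25 (edgeR adjusted p = 0.893). With all libraries limma-voom gave Rbp4 a log2 fold change of -0.75 ± 0.96.

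The same library held the RNA of liver genes. Alb, which encodes serum albumin, had 2063 counts in Saline 4 and 1 to 8 counts in every other library. Afp, which encodes the fetal plasma protein alpha-fetoprotein, had 3470 counts in Saline 4, against 6, 6 and 45 counts in RBC 1, 2 and 3 and 0, 1 and 119 counts in Saline 1, 2 and 3. Ahsg, which encodes the liver-secreted fetuin-A, had 184 counts in Saline 4 and 0 in the other 6 libraries. The part of these transcripts in the Rbp4 value was not tested. The 3 genes whose log2 CPM followed Rbp4 most closely over the 7 libraries were Tgfb2, Nipsnap1 and Glud1 (Pearson r 0.985, 0.983 and 0.978, out of 11546 genes whose mean count reached 50). All 3 were highest in Saline 4, which follows from their choice by closeness to Rbp4 and adds no separate observation.

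Aldh1a2, which encodes the main retinaldehyde dehydrogenase of the early embryo and of meninges, was the most abundant of the synthesis genes. It lies on chromosome 9 (GRCm39, 71123071 to 71203525, plus strand). Aldh1a2 had 56, 79 and 219 counts in RBC 1, 2 and 3, and 120, 94, 118 and 98 counts in Saline 1 to 4. This was 7.03, 11.9 and 39.7 CPM in the RBC libraries, against 17.7, 15.1, 14.1 and 22.7 CPM in the Saline libraries. The RBC libraries therefore held both the lowest values and the highest value, with the Saline libraries between them. The RBC mean of 19.5 ± 17.6 CPM (SD, n = 3) lay within its own spread of the Saline mean of 17.4 ± 3.84 CPM (SD, n = 4), and the log2 fold change of Aldh1a2 was 0.15 ± 0.61 (edgeR adjusted p = 0.975). Without RBC 3 the direction of Aldh1a2 turned, with a log2 fold change of -0.87 ± 0.25 (edgeR adjusted p = 0.129). RBC 3 alone stood at 2.72 times the median of the other 6 libraries. The coefficient of variation of Aldh1a2 was 90.0% among RBC libraries and 22.1% among Saline libraries, where counting error alone would give 9.21% and 9.64%.

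Aldh1a1, which encodes a second retinaldehyde dehydrogenase, had few counts outside RBC 3. Aldh1a1 (chromosome 19, GRCm39, 20469947 to 20620827, plus strand) had 6, 12 and 59 counts in RBC 1, 2 and 3, against 5, 8, 10 and 8 counts in Saline 1 to 4. Those are 0.753, 1.82 and 10.7 CPM in the RBC libraries and 0.739, 1.28, 1.20 and 1.85 CPM in the Saline libraries. RBC 1 and RBC 2 lay within the Saline range, and RBC 3 was 8.62 times the median of the other 6 libraries. The log2 fold change of 1.77 ± 0.89 (3.40-fold, edgeR adjusted p = 0.614) was 0.04 ± 0.53 without RBC 3 (edgeR adjusted p = 0.991) and 0.85 ± 0.89 in limma-voom with all libraries. The paralog Aldh1a7 is nearly identical to Aldh1a1, and how reads shared by both were counted is not stated in the labels, so both values are uncertain. An exon of Aldh1a1 also overlaps E030003E18Rik on the same strand, which had 0 counts in every library. Aldh1a7 had 1, 7 and 25 counts in RBC 1, 2 and 3, and 4, 5, 4 and 10 counts in Saline 1 to 4, again with RBC 3 the highest.

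Aldh1a3, which encodes the third retinaldehyde dehydrogenase, was at the limit of detection. Aldh1a3 (chromosome 7, GRCm39, 66040640 to 66077225, minus strand) had 0, 1 and 0 counts in RBC 1, 2 and 3, and 2, 2, 3 and 1 counts in Saline 1 to 4. With 1 count over the RBC libraries and 8 over the Saline libraries Aldh1a3 fell under the count filter. In CPM every RBC library was below every Saline library, a separation found in 9.59% of all genes tested. In counts RBC 2 and Saline 4 tied at 1, and scaling to library size set them apart (0.151 and 0.232 CPM). With no count filter edgeR gave an adjusted p of 0.751. No library exceeded 3 counts, the limit that a count of 0 allows, which corresponds to 0.547 CPM in RBC 3 and 0.683 CPM in Saline 4, the shallowest library of each group. At this depth no fold is given for Aldh1a3. Such limits cover counting error only.

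Summed over the 3 dehydrogenase genes, the level was 10.2, 17.2 and 64.3 TPM in RBC 1, 2 and 3, against 24.9, 22.0, 20.9 and 31.3 TPM in Saline 1 to 4. The RBC mean of 30.6 ± 29.4 TPM (SD, n = 3) and the Saline mean of 24.8 ± 4.65 TPM (SD, n = 4) differed by 5.82 TPM, with p = 0.857 in a two-sided exact permutation test. Without RBC 3 the direction turned, with a difference of -11.0 TPM (exact permutation p = 0.133, the smallest that 2 against 4 libraries can give). Aldh1a2 made up most of the sum in every library, at 92.6, 89.1 and 83.2% in the RBC libraries and 95.9, 92.8, 92.6 and 93.6% in the Saline libraries (exact permutation p = 0.114). The Aldh1a1 share was 7.43, 10.1 and 16.8% in the RBC libraries, against 3.00, 5.92, 5.88 and 5.73% in the Saline libraries. Each RBC share exceeded each Saline share, a difference of 6.33 percentage points with an exact permutation p of 0.0571, the smallest that 3 against 4 libraries can give. In RBC 1 and RBC 2 Aldh1a1 itself stood at 0.756 and 1.75 TPM, within the Saline range of 0.745 to 1.79 TPM. Aldh1a2 stood at 9.42 and 15.4 TPM in these libraries, below the Saline range of 19.3 to 29.3 TPM. Without RBC 3 the difference in the Aldh1a1 share was 3.66 percentage points (exact permutation p = 0.133), and that in the Aldh1a2 share was -2.89, against -5.43 with all libraries. These were 5 values tested in 1 family, the share of Aldh1a3 (p = 0.114 by the exact test) and the ratio of Cyp26b1 to the sum included, and this design cannot reach 0.05 for any of them. After Benjamini-Hochberg adjustment over the 5, the exact p was 0.190 for each of the 3 shares and 0.857 for the sum and the ratio. The Aldh1a1 shares of RBC 1 and Saline 1 rest on 6 and 5 counts of Aldh1a1.

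Cyp26b1 encodes a retinoic acid hydroxylase and was the degradation gene detected in all libraries. It lies on chromosome 6 (GRCm39, 84548396 to 84570890, minus strand). Cyp26b1 had 54, 51 and 49 counts in RBC 1, 2 and 3, and 61, 51, 80 and 45 counts in Saline 1 to 4, or 6.78, 7.71 and 8.87 CPM in the RBC libraries against 9.01, 8.18, 9.57 and 10.4 CPM in the Saline libraries. RBC 3 overlapped the Saline range and RBC 1 and RBC 2 lay below it. The log2 fold change of Cyp26b1 was -0.26 ± 0.18 (0.836-fold, edgeR adjusted p = 0.735), and its sign was the same in all 18 alternatives. The spread of Cyp26b1 was about that of counting error, with a coefficient of variation of 13.5% against 14.0% in the RBC libraries and 10.1% against 13.0% in the Saline libraries. The ratio of Cyp26b1 to the summed dehydrogenase level, both in TPM, was 0.162, 0.104 and 0.0338 in RBC 1, 2 and 3, and 0.0885, 0.0913, 0.114 and 0.0780 in Saline 1 to 4 (difference 0.00711, exact permutation p = 0.8). RBC 3 had the lowest ratio and RBC 1 the highest, so the groups overlapped. The difference was 0.0402 without RBC 3 and -0.0238 without RBC 1. Of the other hydroxylase genes, Cyp26c1 had 0 counts in every library, and Cyp26a1 had 0 in the RBC libraries and in Saline 1 and Saline 2, 1 in Saline 3 and 8 in Saline 4.

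Crabp2 encodes the small binding protein that carries retinoic acid to its nuclear receptors. Crabp2 (chromosome 3, GRCm39, 87856000 to 87860679, plus strand) had 66, 71 and 129 counts in RBC 1, 2 and 3, and 58, 117, 93 and 89 counts in Saline 1 to 4. Its levels were 8.29, 10.7 and 23.4 CPM in the RBC libraries and 8.57, 18.8, 11.1 and 20.6 CPM in the Saline libraries. The groups overlapped over nearly their whole range, and RBC 3 was 2.14 times the median of the other 6 libraries. Crabp2 had a log2 fold change of -0.06 ± 0.46 (edgeR adjusted p = 0.988), and -0.61 ± 0.37 without RBC 3 (edgeR adjusted p = 0.538).

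**Figure D2:**
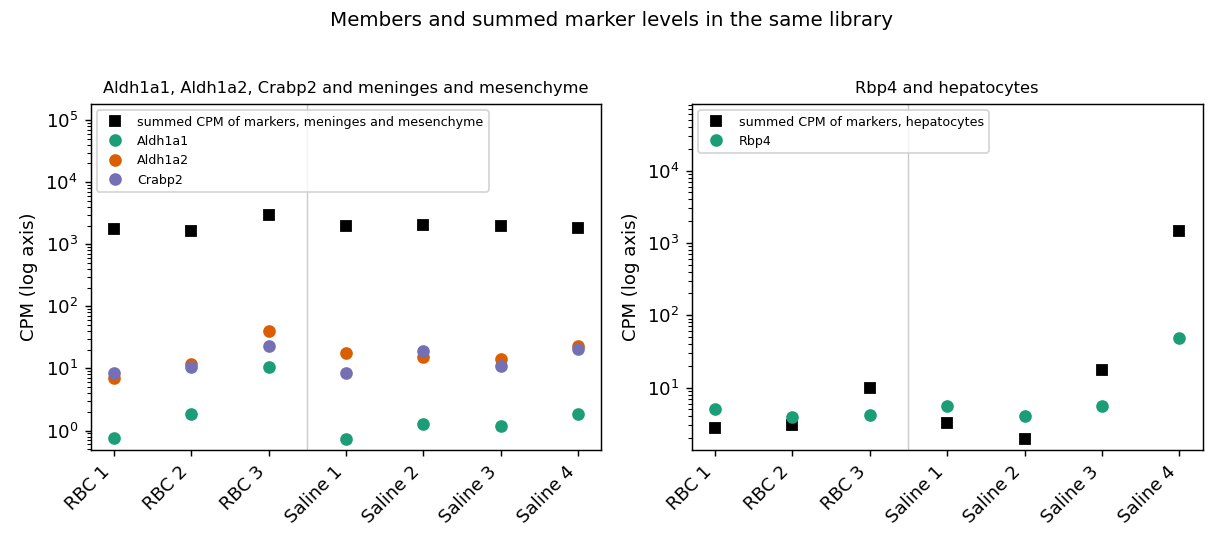
CPM on a log axis in each RBC and Saline library, for Aldh1a1, Aldh1a2 and Crabp2 with the summed markers of meninges and mesenchyme (left), and for Rbp4 with the summed hepatocyte markers (right); black squares are the marker sums. The left-hand genes and their marker sum of 2979 CPM are highest in RBC 3, and Rbp4 and its marker sum of 1481 CPM are highest in Saline 4.

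RBC 3 was the highest of the 7 libraries for 4 of the 8 tested members (Aldh1a1, Aldh1a2, Crabp2 and Rarb) and for 16.7% of all genes tested. RBC 1 was the lowest for 4 of the 8 (Aldh1a2, Cyp26b1, Stra6 and Crabp2) and for 11.9% of all genes tested. Markers of mesenchymal and vascular cells were also high in RBC 3. Among 13 markers of meninges and mesenchyme, Slc6a13, which encodes a GABA transporter of the leptomeninges, stood at 87.8 CPM in RBC 3 against a median of 24.8 CPM in the other 6 libraries, or 3.54 times. Col3a1, Dcn and Foxc1 were 2.01, 2.03 and 1.96 times their medians, and Crym and Alpl were the markers not highest there. The summed level of 8 endothelial markers was 1289 CPM in RBC 3 and between 858 and 1084 CPM elsewhere, with 6 of 8 highest there, and that of 6 markers of pericytes and smooth muscle was 626 CPM against 386 to 493 CPM, with 5 of 6 highest. None of these lists had a marker at 0 in all libraries. The part of such cells in the values of Aldh1a1, Aldh1a2, Crabp2 and Rarb was not tested.

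Rara encodes retinoic acid receptor alpha and had the smallest coefficient of variation of the 9 genes among RBC libraries, 2.61%, against 6.28% among Saline libraries. Counting error alone would give 5.45% and 5.83%, so the RBC value lies below that error and is no measure of stability. It lies on chromosome 11 (GRCm39, 98818626 to 98865768, plus strand). Rara had 410, 330 and 270 counts in RBC 1, 2 and 3, and 321, 306, 356 and 193 counts in Saline 1 to 4. In CPM these were 51.5, 49.9 and 48.9 in the RBC libraries, against 47.4, 49.1, 42.6 and 44.7 in the Saline libraries. The groups met at their edge, with RBC 3 just below Saline 2. Rara averaged 50.1 ± 1.31 CPM in RBC libraries (SD, n = 3) and 46.0 ± 2.89 CPM in Saline libraries (SD, n = 4), a log2 fold change of 0.13 ± 0.08 (edgeR adjusted p = 0.707). Exons of Rara overlap those of Gm46294 on the opposite strand. Gm46294 had 11 to 18 counts in RBC libraries and 12 to 23 in Saline libraries, and as no strand setting of the counting is stated, reads of the overlap cannot be assigned with certainty.

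Rarb encodes retinoic acid receptor beta, whose promoter holds one of the classical retinoic acid response elements. It lies on chromosome 14 (GRCm39, 5387365 to 6038924, plus strand). Such an element is a pair of half-sites repeated in the same direction with 5 bases between them. The 250 bases before the start of Rarb (RefSeq, GRCm38.p6, chr14:16575477-16575726, minus strand, the strand of the gene in that build) are shown because they hold the only such element among the promoters of the 9 genes that could be searched. The 52 bases before the start of Cyp26a1 (chr19:37697756-37697807, plus strand) are shown beside them, as that hydroxylase gene is another gene of retinoic acid signalling known for such an element. Capitals mark the 17 bases of the element, both half-sites and the spacer.
Rarb: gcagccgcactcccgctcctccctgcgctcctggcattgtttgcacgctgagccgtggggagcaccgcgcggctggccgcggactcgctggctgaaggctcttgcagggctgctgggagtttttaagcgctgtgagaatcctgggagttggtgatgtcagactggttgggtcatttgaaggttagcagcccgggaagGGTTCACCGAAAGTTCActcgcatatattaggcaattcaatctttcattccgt
Cyp26a1: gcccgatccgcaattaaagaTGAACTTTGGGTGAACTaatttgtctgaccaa

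The half-sites searched were AGGTCA, or AGTTCA, or GGGTCA, or GGTTCA, with 2 of them on the same strand and a spacer of 5 bases, on both strands. In Rarb the element runs from base -53 to base -37 before the start, and in Cyp26a1 from base -32 to base -16 on the opposite strand. It occurred in 32 of 32851 RefSeq promoter windows of 300 bases (0.0974%), while a single half-site occurred in 43.7%. Of the 9 genes, 7 had promoter windows in the RefSeq table, 15 windows in all, and 1 of the 15 held the element. Aldh1a3 and Crabp2 were the other 2 genes. A match describes these letters and is no evidence of binding. Of the 31 genes with the element, 5 were tested, and 0 of the 5 passed the threshold in edgeR. At an unadjusted p of 0.05 edgeR called 0 of the 5, against 9.54% of all genes tested. The 5 log2 fold changes ran from 0.03 (Blvrb) to 0.72 (Hbb-y), where 49.9% of all genes tested lay above 0. Their median of 0.23 was the value of Rarb itself. Hbb-y is an erythroid marker whose RBC and Saline libraries overlapped, and Ppbp had a mean count of 9.71. The part of the added red blood cells in the Hbb-y value was not tested. So few genes cannot decide whether genes with the element moved together.

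Rarb had 198, 158 and 172 counts in RBC 1, 2 and 3, and 162, 116, 216 and 95 counts in Saline 1 to 4. The levels of Rarb were 24.9, 23.9 and 31.1 CPM in the RBC libraries and 23.9, 18.6, 25.8 and 22.0 CPM in the Saline libraries. RBC 3 lay above all Saline libraries, and RBC 1 and RBC 2 lay within the Saline range. The mean was 26.6 ± 3.93 CPM in RBC libraries (SD, n = 3) and 22.6 ± 3.08 CPM in Saline libraries (SD, n = 4). Rarb had a log2 fold change of 0.23 ± 0.14 (1.17-fold, edgeR adjusted p = 0.682), and 0.11 ± 0.14 without RBC 3 (edgeR adjusted p = 0.821).

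**Figure D3:**
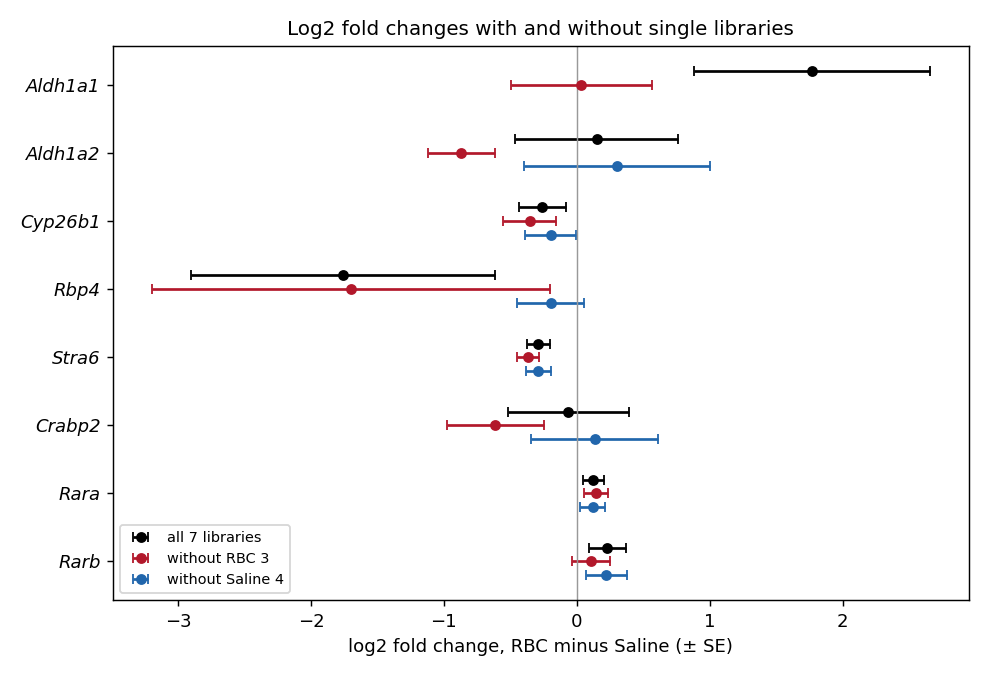
Log2 fold change (RBC minus Saline, horizontal axis, points with SE bars) of the 8 tested genes, from all 7 libraries (black), without RBC 3 (red) and without Saline 4 (blue). Aldh1a1 moves from 1.77 to 0.04 without RBC 3, Rbp4 from -1.76 to -0.19 without Saline 4, and Aldh1a2 from 0.15 to -0.87 without RBC 3; Aldh1a1 has no blue point because it fell under the count filter there.

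Compared per length, the order of the 9 genes was led by Stra6 in both groups, with a mean of 93.9 TPM in RBC libraries and 115.8 TPM in Saline libraries. In each group every library had Stra6 above every value of Crabp2, which averaged 47.3 TPM in RBC and 49.6 TPM in Saline libraries. In the RBC libraries Rara (32.2 TPM), Aldh1a2 (26.1 TPM) and Rarb (21.2 TPM) followed Crabp2, and each of these overlapped the next. Rarb lay above Rbp4 (10.2 TPM) in all RBC libraries, and Rbp4 overlapped Aldh1a1 (4.44 TPM), which overlapped Cyp26b1 (1.87 TPM). In the Saline libraries the order was Crabp2, Rbp4 (36.3 TPM), Rara (29.9 TPM), Aldh1a2 (23.2 TPM), Rarb (18.2 TPM), Cyp26b1 (2.26 TPM) and Aldh1a1 (1.27 TPM). Rbp4 reached 109 TPM in Saline 4 and stood at 9.49 to 13.4 TPM in the other Saline libraries. From Crabp2 down to Rarb the neighbours overlapped, and Rarb, Cyp26b1 and Aldh1a1 each lay wholly above the gene after them. Aldh1a3 was the lowest in both groups, at 0.0432 TPM in RBC and 0.270 TPM in Saline libraries. Cyp26b1, with 12481 exonic bases, is the longest of the 9 genes, so the same count stands for a lower TPM in Cyp26b1 than in the others.

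**Figure D4:**
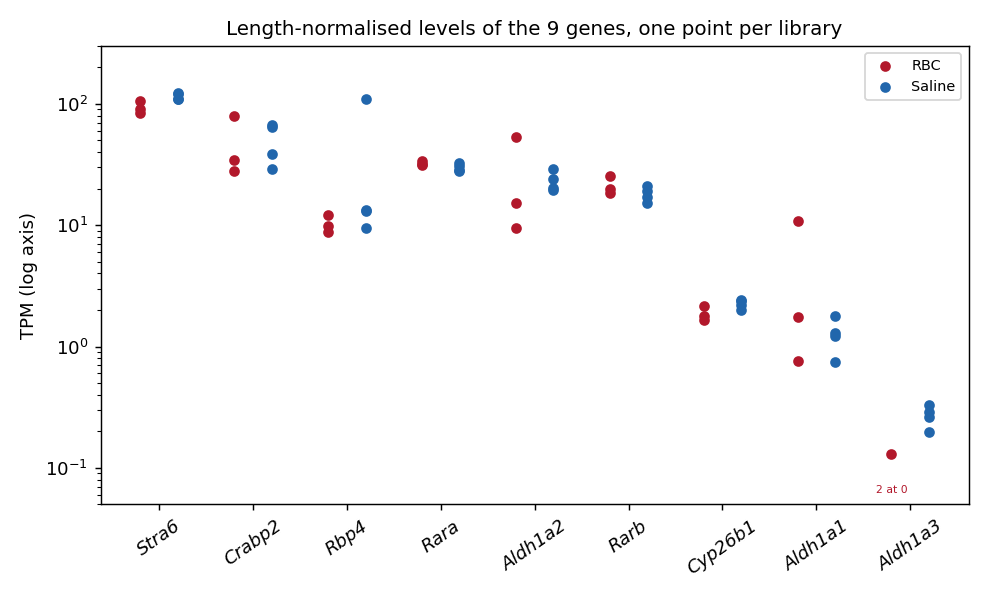
TPM (log axis) of the 9 genes, ordered by level, with 1 point per library for RBC (red, left) and Saline (blue, right). Stra6 lies highest in both groups, at 84.5 to 106 TPM in RBC and 109 to 124 TPM in Saline libraries; for Aldh1a3, 2 RBC libraries at 0 cannot be drawn and are given as text.

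For each of the 7 genes whose mean count reached 50, the closest pattern over the 7 libraries was sought among 11546 genes. Besides Rbp4, the nearest genes were Akap8 for Aldh1a2 (Pearson r = 0.978), Oxa1l for Cyp26b1 (0.975), Nid2 for Stra6 (0.981), Mllt1 for Rara (0.961), Dse for Rarb (0.963) and Slc1a2 for Crabp2 (0.986). The points share the depth and composition of their libraries, and the values describe these 7 libraries with no test. Nid2, a basement membrane gene, stood at 640, 668 and 743 CPM in RBC 1, 2 and 3 and at 827, 864, 740 and 785 CPM in Saline 1 to 4. Nid2 was lowest in RBC 1 and highest in Saline 2, as Stra6 was, a likeness that its choice as the nearest gene favours.

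The rest of the pathway was followed in a list of 49 genes, of which 33 were tested. None passed the threshold in edgeR or DESeq2, which 0.0605% and 1.86% of all genes tested passed. An unadjusted edgeR p under 0.05 was found for 0 of 33, against 9.54% of all genes tested. The log2 fold changes lay above 0 for 14 genes and below 0 for 19, from -0.78 to 0.58 with a median of -0.02. The RBC and Saline libraries separated for 0 of the 33, against 9.59% of all genes tested. By role, 6 genes of retinol binding and storage, 9 dehydrogenases and reductases, 2 further binding proteins, 3 further receptors, 6 coregulators and 7 genes known to respond to retinoic acid were tested. The further hydroxylases and Aldh8a1 were too low to test.

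Among the abundant genes of the list, Rdh10, which encodes the enzyme that makes retinal from retinol, averaged 182 ± 17.8 CPM in RBC libraries (SD, n = 3) and 184 ± 8.61 CPM in Saline libraries (SD, n = 4). Rxra, the retinoid X receptor alpha gene, averaged 139 ± 11.1 CPM in RBC and 136 ± 2.57 CPM in Saline libraries. The log2 fold change was -0.02 ± 0.08 for Rdh10 and 0.03 ± 0.07 for Rxra, and both groups overlapped. Ttr, the choroid plexus gene for transthyretin, the partner of the retinol carrier in plasma, had a log2 fold change of -0.09 ± 0.12. Nr2f2, a transcription factor gene known to respond to retinoic acid, stood at 0.12 ± 0.08, and Ncor1, a corepressor gene, at -0.06 ± 0.06 (edgeR adjusted p between 0.745 and 0.971 over these 5 genes).

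Among the list genes with the lowest p were Meis2, a homeobox gene known to respond to retinoic acid, and Fabp5. Meis2 stood at 13.2, 7.41 and 10.9 CPM in RBC 1, 2 and 3, against 20.4, 13.6, 14.1 and 10.4 CPM in Saline 1 to 4, and the groups overlapped. The log2 fold change was -0.49 ± 0.25 for Meis2 (edgeR adjusted p = 0.586) and 0.58 ± 0.33 for Fabp5 (edgeR adjusted p = 0.676). Fabp5 encodes a binding protein that carries retinoic acid to PPAR receptors. Its levels were 58.5, 44.2 and 65.0 CPM in RBC 1, 2 and 3, against 31.6, 28.6, 29.1 and 63.7 CPM in Saline 1 to 4. Saline 4 was the Saline library within the RBC range, and the other Saline libraries lay below all RBC libraries. Without Saline 4 the log2 fold change of Fabp5 was 0.92 ± 0.14 (edgeR adjusted p = 0.0843). Fabp5 was called in the fit without RBC 2 and Saline 4 (1.06 ± 0.11, edgeR adjusted p = 0.00348), where 40 genes were called in all. It was also called without RBC 3 and Saline 4 (0.80 ± 0.13, edgeR adjusted p = 0.00886), where 239 genes were called in all. That second fit was chosen after seeing the data. Both fits left out Saline 4, the Saline library within the RBC range. The fit without RBC 2 and Saline 4 also left out the RBC library with the lowest Fabp5, at 44.2 CPM.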

How the data were processed

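The authors deposited raw read counts per gene for 7 libraries, with positions and exonic lengths. Listed in the submitters' processing notes, with no settings, are the build GRCm39 and the tools featureCounts 2.0.6, STAR 2.6.1b and cutadapt 2.5. The library preparation was directional per the labels' protocols. Not given in the sources used here are the annotation release, the strand setting and the treatment of multi-mapped reads. The table lists 40879 genes. The entries of 6 of them (Huwe1, Mycbp2, Syne1, Ttn, Neb and Dst) are each broken over 2 lines and were left out, and the 6 continuation lines hold 0.107% of all counts.

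RBC was compared with Saline in edgeR 4.0.16 (R 4.3.3) by its two-sided, robust quasi-likelihood test, with TMM normalization, genes kept by filterByExpr (14869 genes), Benjamini-Hochberg adjustment over all of them and a threshold of 0.05. Fold changes are RBC over Saline, and the F statistic gave their standard errors. CPM use TMM-scaled totals of the tested genes, marker sums add the CPM of single markers, and TPM use the counts and the deposited exonic lengths. Single values per library were compared by two-sided exact permutation tests. Alternatives were DESeq2 1.42.0, limma-voom (limma 3.58.1), a fit without robust estimation, other normalizations and count filters, a block by replicate number, each library left out in turn, and RBC 2 and Saline 4 left out together. Leaving out RBC 3 and Saline 4 together was chosen after seeing the data. The tests were tried on simulated counts.

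The 9 genes, the pathway list and the marker lists were chosen with earlier results of these data known. Named are all 9 genes, pathway genes among the 4 with the lowest p, the most abundant tested gene of each role, and for each member with a mean count of at least 50 the 3 genes of highest Pearson r of log2 CPM (the nearest is printed, and all 3 for Rbp4). Aldh1a7, Cyp26a1, Cyp26c1, genes overlapping a member, genes with the response element and single marker genes were named after their values were seen. Promoter sequences are from RefSeq on GRCm38.p6, matched by symbol, and 7 of the 9 genes matched. Values of some genes that this rule takes are left out of the text. No coordinate was converted between builds.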

Additional observations from a re-analysis of the deposited data

Results flagged for a closer look

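The spread within the Saline group was examined for 13 quantities by Dixon's test at the 95% level, which chance passes in about 1 in 20 groups. In Saline 4 Rbp4 stood at 48.4 CPM, where Saline 1, 2 and 3 had 4.01 to 5.62 CPM, so that the gap was 0.964 of the whole range. The share of Aldh1a1 in the summed dehydrogenase level was 3.00% in Saline 1, against 5.73 to 5.92% in the other Saline libraries, a gap of 0.935 of the range. The value of Saline 1 rests on 5 counts of Aldh1a1.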

How the results depend on the processing

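No member was called in 17 of 18 alternatives, and the exception was Stra6 without RBC 3. Over all genes, edgeR called 9 (6 higher, 3 lower in RBC), DESeq2 277 (211 and 66), edgeR without robust estimation 16 (13 higher), without a count filter 136 (102 and 34), 40 (31 and 9) without RBC 2 and Saline 4, and 239 (182 and 57) without RBC 3 and Saline 4. In both last fits 1 pathway gene was called, higher (Fabp5). Leaving out single libraries gave 1 to 283 calls (0 to 226 higher, 1 to 57 lower; the most without RBC 3), and 0 to 1 members, lower. The log2 fold change of Aldh1a2 turned to -0.28 in limma-voom and -0.73 without RBC 3 and Saline 4, and ran from -0.87 to 0.57 over single libraries. That of Crabp2 turned to 0.28 without RBC 2 and Saline 4 and ran from -0.61 to 0.22. The median over members was -0.30 without RBC 3 and Saline 4 and ran from -0.36 to 0.17 over single libraries. The summed dehydrogenase difference ran from -11.0 (without RBC 3) to 16.0 TPM and the Cyp26b1 ratio from -0.0238 to 0.0402. The cause was not tested. Deviations of same-numbered libraries correlated at -0.008, -0.173 and -0.173, within the -0.213 to 0.261 of different-numbered libraries. So few values, centred within each group, cannot decide whether replicate numbers pair the libraries. With the replicate block, in which Saline 4 has no partner and adds nothing to the difference, 2 genes were called (2 higher, 0 lower), 0 of them members, and Crabp2 stood at 0.089. Aldh1a1 fell under the count filter in 3 alternatives, and DESeq2 gave Rbp4 no p. Other than Aldh1a2 and Crabp2, the tested members kept their sign wherever fitted. Depth limits Aldh1a1 and Aldh1a3, which had at most 12 and 3 counts outside RBC 3.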

Other observations

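All 8 macrophage markers (Csf1r, Adgre1, C1qa, C1qb, Mrc1, Cx3cr1, Lyve1 and Aif1) had a log2 fold change above 0, with a median of 0.75, and 1 of them passed the threshold. Over all genes tested, 49.9% lay above 0 and 0.0605% passed the threshold. Adgre1, the gene of the macrophage antigen F4/80, stood at 22.0, 31.0 and 27.9 CPM in RBC 1, 2 and 3, against 11.7, 12.4, 12.0 and 14.8 CPM in Saline 1 to 4 (log2 fold change 1.09, edgeR adjusted p = 0.0280). With Saline 1, Saline 2 or Saline 3 left out in turn, edgeR called 0 genes higher in RBC. Adgre1 therefore did not pass the threshold in those fits. The summed level of the macrophage list was 312, 456 and 455 CPM in the RBC libraries and 269, 207, 247 and 254 CPM in the Saline libraries. The 8 markers of neural progenitors and neurons summed to 185 to 324 CPM in RBC and 258 to 315 CPM in Saline libraries. The log2 fold change lay above 0 for 1 of these 8, with a median of -0.48. The 6 erythroid markers summed to 1896 to 2318 CPM in RBC and 1879 to 2589 CPM in Saline libraries. For 1 of these 6 it lay above 0, with a median of -0.14. In both lists 0 markers passed the threshold.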
